A study of Mus musculus with 9 samples.

Results

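The nuclear genes of oxidative phosphorylation encode most subunits of the respiratory complexes I to V and the electron carrier cytochrome c. Members were the probe sets whose single gene symbol in the platform annotation begins with Ndufa, Ndufb, Ndufc, Ndufs, Ndufv, Uqcr, Cox4, Cox5, Cox6, Cox7, Cox8 or Atp5, or is Sdha, Sdhb, Sdhc, Sdhd, Cyc1 or Cycs. The rule took 118 of the 24922 probe sets on the array, for 91 genes. A filter on dim sets, which left out the 30% with the lowest mean, kept 88 of the 91 genes. They were 33 subunits of complex I, 4 of complex II, 9 of complex III, cytochrome c, 16 of complex IV and 17 of complex V. The rule also took Ndufa4 and Ndufa4l2, kept apart as a pair, and 6 Ndufaf genes, which assemble complex I and are no subunits. Cox7b2, Ndufaf6 and Ndufb3 lay under the filter.

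Expression was measured in innate lymphoid cells (ILCs) sorted from mouse skin, on 9 one-colour Affymetrix arrays. Every group came from female B6 mice with EGFP at 1 Ccr10 allele, so that GFP reports the skin-homing receptor CCR10. The cells were CD45.2-positive and negative for CD3 and a lineage panel that names no mast cell marker. The groups were Rag1-/- GFP+ (2 arrays), Rag1-/- GFP- (3 arrays), Rag1-sufficient GFP+ (2 arrays) and Rag1-sufficient GFP- (2 arrays). Rag1-/- mice lack T and B cells. The labels used here give no age and do not state whether a replicate is another animal. The p-values therefore cover the variation among these arrays only, part of which may be technical.

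Complexes I to IV pass electrons from NADH and succinate to oxygen. Complexes I, III and IV pump protons across the inner mitochondrial membrane, and complex V, the ATP synthase, uses that gradient to make ATP. Ubiquinone and cytochrome c carry electrons between the complexes. Lymphocytes draw on this pathway to different degrees in quiescence, activation and proliferation. The subunits encoded in mitochondrial DNA were not analysed here.

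The promoters of 5 members, 1 from each complex, are printed because all hold a match to NRF1, a factor known for its sites in respiratory chain genes. They were chosen, after their values were seen, among the named members with such a match. Sequences are from RefSeq, build GRCm38.p6, from 250 bases before to 50 after the gene start, with motif matches in capitals.
Ndufa11 (chr17:56717512-56717811, plus strand): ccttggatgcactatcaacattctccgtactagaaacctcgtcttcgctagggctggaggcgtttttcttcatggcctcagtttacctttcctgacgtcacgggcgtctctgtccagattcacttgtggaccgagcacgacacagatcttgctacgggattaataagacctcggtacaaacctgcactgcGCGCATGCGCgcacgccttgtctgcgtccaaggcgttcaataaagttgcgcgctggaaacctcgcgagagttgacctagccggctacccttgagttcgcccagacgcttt
Sdhd (chr9:50603800-50604099, minus strand): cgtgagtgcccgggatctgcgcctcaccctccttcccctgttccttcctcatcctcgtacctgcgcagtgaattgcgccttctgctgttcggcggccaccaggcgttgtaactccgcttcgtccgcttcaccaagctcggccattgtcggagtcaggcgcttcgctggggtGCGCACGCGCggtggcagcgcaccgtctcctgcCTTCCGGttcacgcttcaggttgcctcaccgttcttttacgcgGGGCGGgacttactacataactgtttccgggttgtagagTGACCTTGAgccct
Uqcrc1 (chr9:108936398-108936697, plus strand): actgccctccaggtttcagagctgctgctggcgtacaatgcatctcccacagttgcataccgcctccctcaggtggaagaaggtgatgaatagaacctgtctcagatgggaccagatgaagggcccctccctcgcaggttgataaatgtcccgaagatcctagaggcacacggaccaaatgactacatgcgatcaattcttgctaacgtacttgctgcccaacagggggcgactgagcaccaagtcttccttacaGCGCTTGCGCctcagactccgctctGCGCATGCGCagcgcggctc
Cox6a1 (chr5:115348909-115349208, minus strand): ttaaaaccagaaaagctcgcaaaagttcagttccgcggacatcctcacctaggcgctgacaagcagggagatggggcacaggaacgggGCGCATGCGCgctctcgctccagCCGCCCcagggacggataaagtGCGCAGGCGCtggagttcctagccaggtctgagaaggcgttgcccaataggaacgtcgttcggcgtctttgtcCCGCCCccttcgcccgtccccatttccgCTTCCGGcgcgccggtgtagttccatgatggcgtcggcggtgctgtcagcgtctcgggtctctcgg
Atp5o (chr16:91931581-91931880, minus strand): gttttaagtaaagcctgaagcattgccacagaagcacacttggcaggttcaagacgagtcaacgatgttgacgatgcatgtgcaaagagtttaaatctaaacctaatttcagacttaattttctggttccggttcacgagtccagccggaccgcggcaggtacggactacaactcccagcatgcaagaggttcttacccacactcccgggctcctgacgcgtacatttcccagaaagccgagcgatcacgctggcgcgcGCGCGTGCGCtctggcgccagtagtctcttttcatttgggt
The motifs searched on both strands were NRF1, ETS (CCGGAAG), YY1 (AAGATGGC), SP1 (GGGCGG) and ESRRA (TCAAGGTCA). Matches may overlap, and an NRF1 match that reads the same on both strands counts at 1 place. The NRF1 matches were centred at -55.5 bases from the start in Ndufa11, -74.5 in Sdhd, 9.5 and 34.5 in Uqcrc1, -157.5 and -112.5 in Cox6a1, and 13.5 in Atp5o. Sdhd also held ETS, SP1 and ESRRA matches, and Cox6a1 ETS and SP1 matches. RefSeq windows were given for 74 of the 91 member genes, 79 windows in all. Of these windows, 24.1% held the NRF1 letters, against 4.6% of all 32851 windows. ETS letters were in 22.8% of member windows, against 8.86% of all windows. The YY1 shares were 12.7% and 2.75%, the SP1 shares 44.3% and 35.7%, and the ESRRA shares 2.53% and 0.423%. Median GC content was 58.3% in member windows and 52.7% in all windows, and its part in these shares was not tested. Among complex I windows 21.2% held NRF1 letters, against 33.3% of complex V and 8.33% of complex IV windows. A match is a description of the letters, not a site in use.

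Arrays were close in scale, with medians of 74.12 to 77.57, and replicates had Spearman correlations of 0.9806 to 0.9924. Rag1 read 28.37 to 31.35 on all arrays, under the filter in every group, so that it checks no genotype. Ccr10 had 148 and 96.5 in Rag1-/- GFP+ samples, 103, 125 and 109 in Rag1-/- GFP- samples, 163 and 130 in Rag1-sufficient GFP+ samples, and 129 and 126 in Rag1-sufficient GFP- samples, so that the fractions overlapped in Rag1-/- mice. ILC markers had a summed intensity of 21856 to 24937 for 9 genes, with Id2, at 6727 to 7905, the largest term. Single markers varied more. Il5 ranged from 368 to 1225, and Klrg1 from 28.3 to 106, under the filter limit of 41.57 on some arrays. Mast cell markers summed to 4849 and 1350 in Rag1-/- GFP+ samples, 4758 to 6089 in Rag1-/- GFP- samples, 907 and 989 in Rag1-sufficient GFP+ samples, and 10373 and 10538 in Rag1-sufficient GFP- samples. Of 11 listed mast cell genes 8 passed the filter, and Cpa3, which defines the list, was at 19.95 to 21.47 on the 3 arrays with least of it. T cell markers summed to 3946 and 7266 in Rag1-/- GFP+ samples, 4983 to 7563 in Rag1-/- GFP- samples, 3689 and 3028 in Rag1-sufficient GFP+ samples, and 2412 and 2335 in Rag1-sufficient GFP- samples. These lists vary with the groups that the members are compared over, and their part in the results below was not tested. Fewer cells of a type and less RNA per cell cannot be told apart on these arrays. The T cell sums were higher in Rag1-/- samples although these mice lack T cells, so that they do not measure T cell number. Cd3e had 763 to 1981 in Rag1-/- samples and 157 to 270 in Rag1-sufficient samples. Cd5 had 59.75 to 80.66 in Rag1-/- samples and 72.62 to 82.07 in Rag1-sufficient samples.

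The first view of the members is their median log2 deviation from the mean of the 4 group means, on each array. Over the 88 genes it was -0.20 and 0.094 in Rag1-/- GFP+ samples, -0.036, 0.13 and 0.41 in Rag1-/- GFP- samples, 0.30 and 0.0013 in Rag1-sufficient GFP+ samples, and -0.21 and -0.32 in Rag1-sufficient GFP- samples. Rag1-sufficient GFP- samples were the lowest, and Rag1-/- GFP- replicate 3 the highest. For comparison, all 17445 tested probe sets had medians between -0.0144 and 0.0128 on these arrays. The 2 arrays of a group differed too. Rag1-sufficient GFP+ replicate 1 exceeded replicate 2 for 84 of 88 members, by a median of 0.24, against 50.8% of all sets. Rag1-/- GFP+ replicate 1 was below replicate 2 by a median of 0.31 on the log2 scale. It was above replicate 2 for 17 of 88 members, against 45.2% of all sets. Rag1-/- GFP- replicate 3 exceeded the mean of replicates 1 and 2 for 72 members, by a median of 0.32, against 53.3% of all sets. It held the highest value of all 9 arrays for 53 of 88 members (60.2%), against 21.4% of all sets.

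**Figure D1:**
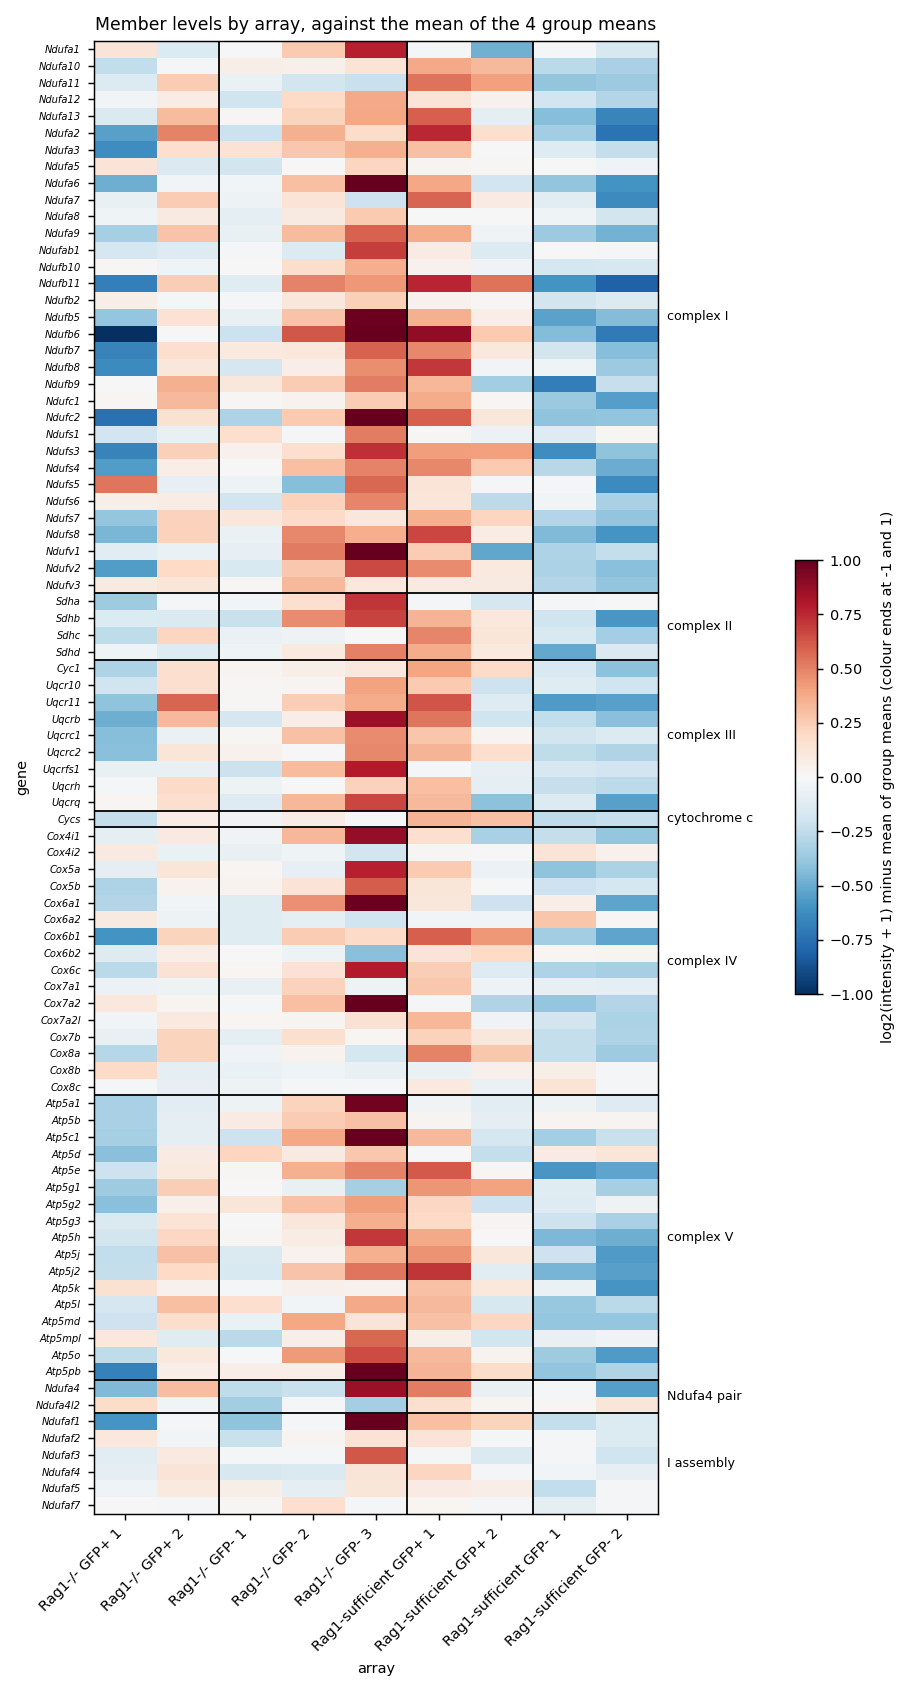
Each row is 1 of the 88 member genes, ordered by complex, and each column is 1 array. Colour gives log2(intensity + 1) minus the mean of the 4 group means, and ends at -1 and 1. Rag1-/- GFP- replicate 3 is red for most subunits, and both Rag1-sufficient GFP- arrays are mostly blue.

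Each of the complexes I to V was below 0 on both Rag1-sufficient GFP- arrays, and above 0 on Rag1-/- GFP- replicate 3 and Rag1-sufficient GFP+ replicate 1. Complex I deviated by -0.19 and 0.12 in Rag1-/- GFP+ samples, -0.049, 0.22 and 0.47 in Rag1-/- GFP- samples, 0.37 and 0.015 in Rag1-sufficient GFP+ samples, and -0.29 and -0.40 in Rag1-sufficient GFP- samples. Complex IV deviated by -0.083 and 0.052 in Rag1-/- GFP+ samples, -0.041, 0.085 and 0.088 in Rag1-/- GFP- samples, 0.15 and -0.028 in Rag1-sufficient GFP+ samples, and -0.20 and -0.30 in Rag1-sufficient GFP- samples. Its range over arrays was narrower than that of complex I. Complex IV also holds tissue isoforms, of which those tested read 62.18 to 197.75, against array medians of 74.12 to 77.57. Complex II reached 0.59, complex III 0.48 and complex V 0.42 in Rag1-/- GFP- replicate 3, against 0.088 for complex IV. That complex IV median takes in its tissue isoforms, which ran from -0.42 (Cox6b2) to -0.021 (Cox8c) on this array. Its other genes had 1.01 (Cox7a2), 0.98 (Cox6a1), 0.88 (Cox4i1), 0.80 (Cox6c), 0.78 (Cox5a) and 0.60 (Cox5b) on this array. Cox6b1 had 0.19, Cox7a2l 0.16, Cox7b 0.020 and Cox8a -0.17 on it. Cytosolic ribosome genes, which are no members, were at 0.54 there, and glycolysis genes at 0.51.

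**Figure D2:**
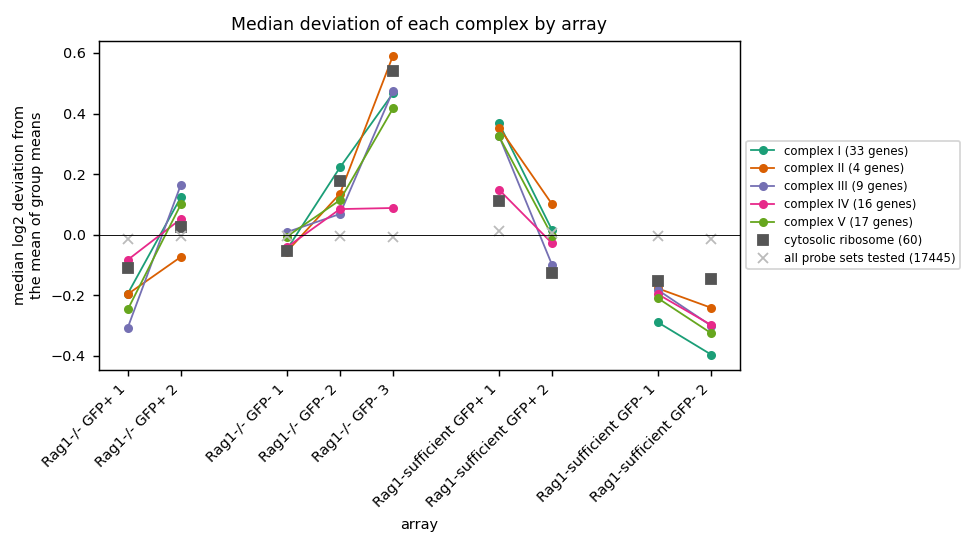
Points give the median log2 deviation of each complex on each array, with lines joining arrays of 1 group. Squares are cytosolic ribosome genes and crosses all tested probe sets, which stay near 0.

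In Rag1-sufficient mice, GFP+ against GFP- cells asks how the sorted CCR10 reporter fractions differ where T and B cells are present. The mast cell sums differed as well, with 907 and 989 in GFP+ samples and 10373 and 10538 in GFP- samples. Their part was not tested. Ccr10 itself had 163 and 130 in GFP+ samples, against 129 and 126 in GFP- samples. Members were higher in GFP+ cells by a median of 0.42 on the log2 scale, with 79 of 88 above 0 (53.6% of all sets were), but none passed the test. limma called 0 of 88 members at an adjusted p under 0.05, where 0.803% of all sets (140 of 17445) passed. At an unadjusted p under 0.05, 30 members were higher and 0 lower, which is 34.1% of members, against 8.16% of all sets higher and 4.82% lower. For 61 members both GFP+ arrays exceeded both GFP- arrays, against 29% of all sets, and for 3 they lay below, against 21.2%. All sets had a median of 0.0142. Without GFP+ replicate 1 the member median was 0.22, with 70 of 88 above 0.

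Complex I subunits were higher by a median of 0.59, with 31 of 33 above 0. Ndufa11, an accessory subunit of the membrane arm, had 1275 and 1163 in GFP+ samples and 665 and 677 in GFP- samples. Its difference was 0.86 ± 0.17 (SE; limma adjusted p = 0.0687), the smallest adjusted p of the members in this comparison. Both GFP+ arrays lay above both GFP- arrays. Ndufb11, an X-linked accessory subunit of the membrane arm, had 1568 and 1350 in GFP+ samples and 612 and 530 in GFP- samples. Its difference of 1.35 ± 0.31 was the highest of the members, with no overlap of groups (adjusted p = 0.12). Ndufa10, another accessory subunit, was at 574 and 552 in GFP+ samples and 366 and 353 in GFP- samples, a difference of 0.65 ± 0.15 (adjusted p = 0.111). Ndufv1, which binds NADH and passes its electrons on, had 287 and 168 in GFP+ samples and 194 and 203 in GFP- samples (0.14 ± 0.35), and the groups overlapped. Ndufs1, an iron-sulfur subunit of the electron-input arm, differed by 0.039 ± 0.16, and Ndufab1, the mitochondrial acyl carrier protein, by -0.019 ± 0.24.

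Complex II oxidises succinate in the citric acid cycle. Its anchors Sdhc and Sdhd and its iron-sulfur subunit Sdhb were higher by 0.55 ± 0.20, 0.56 ± 0.21 and 0.61 ± 0.27, and its flavoprotein Sdha differed by -0.083 ± 0.24. Sdhd had 272 and 225 in GFP+ samples and 147 and 190 in GFP- samples, without overlap. Sdha had 259 and 230 in GFP+ samples and 257 and 261 in GFP- samples, which overlapped. All 9 subunits of complex III were above 0, by a median of 0.35. Uqcr11, a small accessory subunit, had 637 and 376 in GFP+ samples and 277 and 282 in GFP- samples (difference 0.81 ± 0.34, adjusted p = 0.366). Cyc1, the cytochrome c1 subunit, differed by 0.57 ± 0.19 (adjusted p = 0.25) and the Rieske protein Uqcrfs1 by 0.13 ± 0.26.

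Cycs, the cytochrome c that shuttles electrons to complex IV, had 5802 and 5603 in GFP+ samples and 3836 and 3913 in GFP- samples. The difference was 0.56 ± 0.11 (adjusted p = 0.0688), and the groups lay apart. A further Cycs probe set gave 0.55, and another lay under the filter. Cycs has processed pseudogenes, so that signal from its copies could not be separated. Complex IV had a median of 0.22 and 12 of 16 above 0. The 4 below 0 were the tissue isoforms Cox4i2, Cox6a2, Cox8b and Cox8c, at -0.17 to -0.030. Apart from the isoforms, its genes ran from 0.18 (Cox7a2) to 0.96 (Cox6b1). Cox6b1, an intermembrane-space subunit, was at 2221 and 1985 in GFP+ samples and 1152 and 1016 in GFP- samples (0.96 ± 0.26, adjusted p = 0.16). Cox8a, a small membrane subunit, differed by 0.68 ± 0.19, Cox5a by 0.46 ± 0.27 and Cox4i1 by 0.24 ± 0.29. The groups of Cox4i1 overlapped.

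Complex V had a median of 0.53, with 15 of 17 above 0. Atp5e, the epsilon subunit of the central stalk, had 803 and 532 in GFP+ samples and 350 and 364 in GFP- samples (0.87 ± 0.24, adjusted p = 0.175). Atp5md, a small membrane subunit, had 6518 and 6116 in GFP+ samples and 4071 and 4070 in GFP- samples (0.63 ± 0.16, adjusted p = 0.141). The alpha and beta subunits of the catalytic head did not share these sizes. Atp5b, the beta subunit, had 3344 and 3088 in GFP+ samples and 3344 and 3351 in GFP- samples, a difference of -0.059 ± 0.12. Atp5a1, the alpha subunit, differed by 0.013 ± 0.29. Apart from these, the delta subunit Atp5d differed by -0.22 ± 0.15. Of the genes for the c ring, Atp5g1 differed by 0.65 ± 0.21, Atp5g2 by 0.093 ± 0.20 and Atp5g3 by 0.38 ± 0.18.

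**Figure D3:**
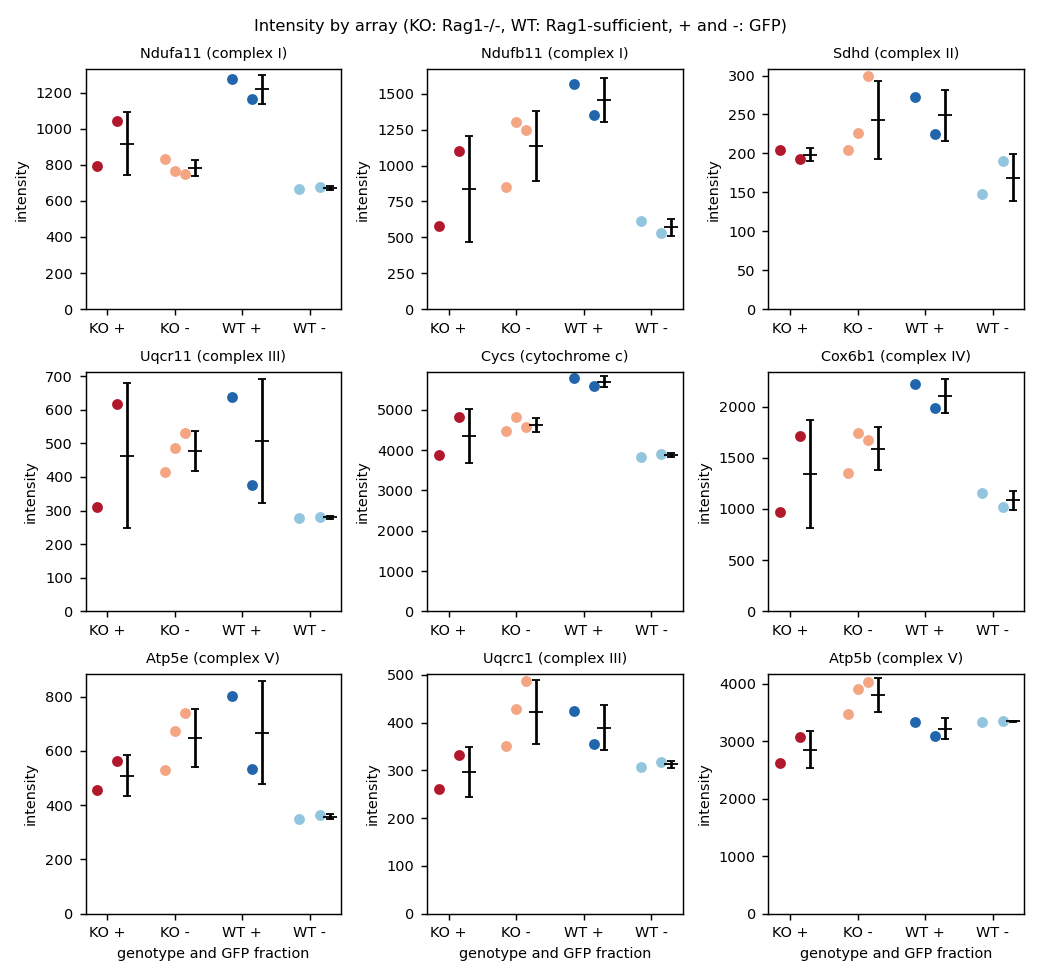
Intensity of 9 members on each of the 9 arrays, with the mean and SD of each group as a bar beside the points. In Ndufa11, Cycs and Cox6b1 the Rag1-sufficient GFP+ arrays lie above all others, and in Atp5b the Rag1-/- GFP- arrays do.

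In Rag1-/- mice, GFP+ against GFP- cells asks the same question without T and B cells. Members were lower in GFP+ cells by a median of 0.21 on the log2 scale (-0.21, against -0.0074 for all sets), with 70 of 88 below 0, and limma called 0 of 88. Of all sets 48% were above 0, against 18 of the 88 members. Other lists were lower in GFP+ cells as well. Glycolysis genes had a median of -0.38, with 13 of 13 below 0, the citric acid cycle -0.26 and cytosolic ribosome genes -0.21. The mitochondrial ribosome had -0.16 and cell cycle genes -0.18. No probe set passed at all (0%), and 6 members were lower and 1 higher at an unadjusted p under 0.05, which is 6.8% lower, against 4.79% of all sets lower and 1.5% higher. For 7 members the GFP+ arrays lay below all GFP- arrays and for 1 above, against 10.1% and 5.27% of all sets. The direction rested on 2 arrays. GFP+ replicate 1 had a mast cell sum of 4849, within the 4758 to 6089 of GFP- samples, against 1350 in GFP+ replicate 2. The part of this difference was not tested. Without GFP+ replicate 1 the median was -0.061, and without GFP- replicate 3 it was -0.094. Without both, an alternative chosen after seeing the data that leaves 1 GFP+ array, the median turned to 0.061, with 52 of 88 above 0.

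Atp5b had 2625 and 3082 in GFP+ samples and 3473, 3910 and 4029 in GFP- samples, a difference of -0.42 ± 0.11 (limma adjusted p = 0.688). Every GFP+ array lay below every GFP- array. Atp5d had 4970 and 7025 in GFP+ samples and 7733, 7070 and 8037 in GFP- samples (-0.36 ± 0.14, adjusted p = 0.688), and again the groups did not overlap. Uqcrc1, a core protein of complex III, had 260 and 333 in GFP+ samples and 352, 429 and 487 in GFP- samples (-0.51 ± 0.18, adjusted p = 0.688). Ndufb6, a membrane arm subunit of complex I, had the lowest difference of the members, with 149 and 356 in GFP+ samples and 307, 549 and 984 in GFP- samples (-1.25 ± 0.50). Ndufa6, singled out after its values were seen, shows how GFP- replicate 3 stood apart, with 215 and 297 in GFP+ samples and 297, 371 and 969 in GFP- samples. Medians by complex were -0.30 for I, -0.36 for II, -0.20 for III, -0.060 for IV and -0.25 for V. That of complex IV takes in its tissue isoforms, at -0.088 (Cox7a1) to 0.16 (Cox6a2). Its other genes ran from -0.60 (Cox6a1) to 0.046 (Cox7b). Over all complexes, the 75 subunits without tissue isoforms had a median of -0.28. Cycs differed by -0.094 ± 0.10.

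**Figure D4:**
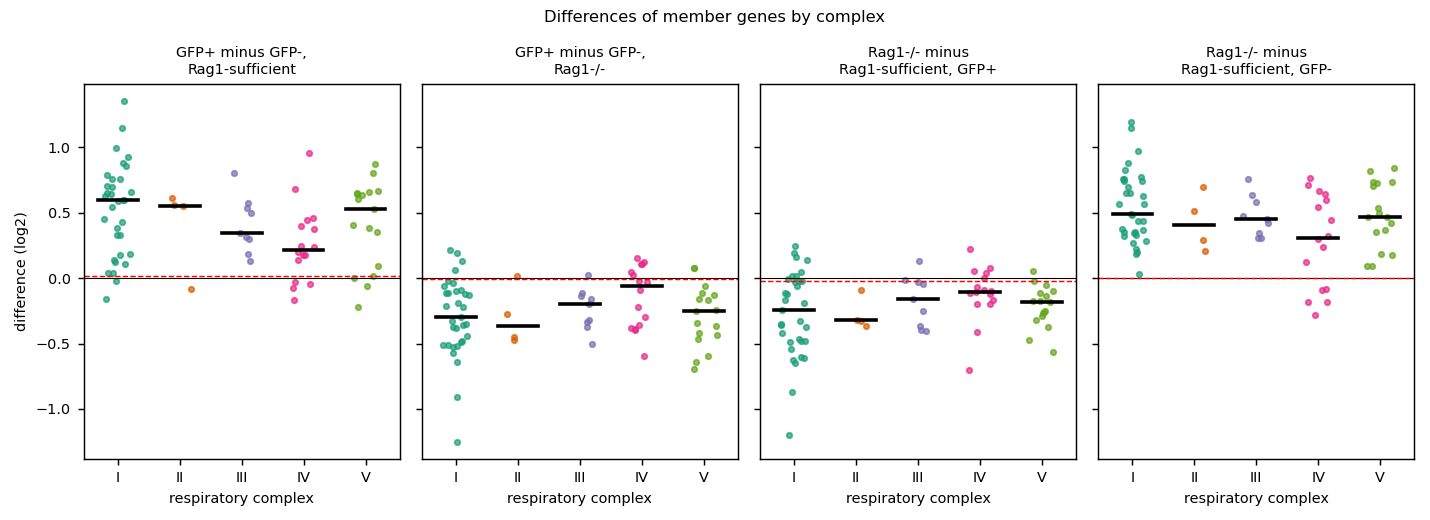
Each point is the log2 difference of 1 member gene, the first group of the panel title minus the second, by complex. Black bars are medians of the complex, and the dashed red line is the median of all tested probe sets.

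The comparison of Rag1-/- with Rag1-sufficient GFP- cells asks how the GFP- fraction differs between genotypes. Whether missing T and B cells cause a difference was not tested. The mast cell sums differed too, with 4758 to 6089 in Rag1-/- GFP- samples and 10373 and 10538 in Rag1-sufficient GFP- samples. Members were higher in Rag1-/- cells by a median of 0.43, against 0.0003 for all sets, and 81 of 88 were above 0, as were 50.1% of all sets. This comparison and the Rag1-sufficient gate share both Rag1-sufficient GFP- arrays, which were the lowest for members (-0.21 and -0.32). The results of the 2 comparisons, and genes high in both, are therefore not independent. Leaving out the tissue isoforms, the Ndufaf genes and Ndufa4l2, all 75 subunits were above 0. limma called 0 of 88 members, where 0.143% of all sets passed, with a smallest adjusted p of 0.161. At an unadjusted p under 0.05, 36 were higher and 2 lower, which is 40.9% higher, against 10% of all sets higher and 7.27% lower. Every Rag1-/- array exceeded every Rag1-sufficient array for 59 members and lay below for 5, against 23% and 17.6% of all sets.

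By complex the medians were 0.49 for I, 0.41 for II, 0.45 for III, 0.31 for IV and 0.47 for V. That of complex IV takes in its tissue isoforms, at -0.28 (Cox6a2) to 0.12 (Cox7a1). Its other genes ran from 0.24 (Cox8a) to 0.77 (Cox7a2). Atp5o, a stalk subunit that joins the catalytic head to the membrane part, had 235, 317 and 372 in Rag1-/- samples and 184 and 159 in Rag1-sufficient samples. Its difference was 0.82 ± 0.21 (adjusted p = 0.161). Atp5e had 528, 672 and 741 in Rag1-/- samples and 350 and 364 in Rag1-sufficient samples (0.84 ± 0.22, adjusted p = 0.162). Neither gene overlapped between the groups. Ndufb11 had 853, 1305 and 1251 in Rag1-/- samples, against 612 and 530 in Rag1-sufficient samples (0.97 ± 0.29, adjusted p = 0.189). Ndufv3, an accessory subunit near the electron entry of complex I, differed by 0.49 ± 0.13 (adjusted p = 0.169), and its groups lay apart. Sdhb differed by 0.70 ± 0.25, Uqcr11 by 0.76 ± 0.31, Cox7a2 by 0.77 ± 0.27 and Cox6c by 0.64 ± 0.23. Ndufv1 had 227, 345 and 491 in Rag1-/- samples and 194 and 203 in Rag1-sufficient samples (0.76 ± 0.32, adjusted p = 0.271). Its groups lay apart. Cycs differed by less, 0.25 ± 0.10 (adjusted p = 0.254). Without Rag1-/- GFP- replicate 3 the median was 0.31, with 76 of 88 above 0. Cytosolic ribosome genes had a median of 0.38 and glycolysis genes 0.35 in this comparison, and the mitochondrial ribosome 0.32.

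The tissue isoforms of complex IV and Ndufa4l2 did not share this. These are Cox6a2, Cox7a1 and Cox8b, known from heart and skeletal muscle, Cox4i2, known from lung, Cox6b2 and Cox8c, known from testis, and Ndufa4l2, known for its induction by low oxygen. Of the 8 listed, Cox7b2 was not tested. In Rag1-/- against Rag1-sufficient GFP- cells the median was -0.18, with 6 of 7 below 0. Ndufa4l2 had 56.2, 70.5 and 56.4 in Rag1-/- GFP- samples and 72.2 and 78 in Rag1-sufficient GFP- samples (-0.30 ± 0.12, adjusted p = 0.258). Cox6a2 had 150, 153 and 142 in Rag1-/- GFP- samples and 198 and 165 in Rag1-sufficient GFP- samples (-0.28 ± 0.12, adjusted p = 0.261). Detection calls were not analysed here, and the dimmer of these values, such as those of Ndufa4l2, may lie near background.

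The comparison of Rag1-/- with Rag1-sufficient GFP+ cells gave lower values, with a median of -0.17 and 73 of 88 below 0. All sets had a median of -0.0224, with 44.2% above 0, against 15 of 88 members. limma called 0 of 88 members, where 0.246% of all sets passed, with 6 members lower and 0 higher at an unadjusted p under 0.05 (6.8% lower, against 4.57% of all sets lower and 2.25% higher). For 21 members every Rag1-/- array lay below every Rag1-sufficient one and for 2 above, against 18.5% and 11% of all sets. Cycs had 3884 and 4825 in Rag1-/- samples and 5802 and 5603 in Rag1-sufficient samples (-0.40 ± 0.11, adjusted p = 0.393), without overlap. Ndufb11 had 576 and 1101 in Rag1-/- samples and 1568 and 1350 in Rag1-sufficient samples (-0.87 ± 0.31, adjusted p = 0.594). Ndufa10 differed by -0.48 ± 0.15 (adjusted p = 0.478). Without Rag1-sufficient replicate 1 the median was -0.011, and without Rag1-/- replicate 1 it was -0.058. Cell cycle genes had a median of -0.55 here.

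The difference of the gate effects between genotypes was tested directly, as the effect in Rag1-/- minus that in Rag1-sufficient cells. Members had a median of -0.62, against -0.0125 for all sets, with 83 of 88 below 0, and limma called 0 of 88. Of all sets 48.2% were above 0, against 5 of 88 members. The shift was not confined to members. Cell cycle genes had a median of -0.72, with 23 of 23 below 0. The mitochondrial ribosome had -0.45, glycolysis genes -0.44, cytosolic ribosome genes -0.34 and the citric acid cycle -0.33. No set passed at all (0%), and 33 members were lower at an unadjusted p under 0.05, 37.5% of members against 9.85% of all sets, and 0 were higher, against 3.78% of all sets. The smallest adjusted p was 0.226, for Cycs (-0.65 ± 0.15). Ndufb11 differed by -1.84 ± 0.43 (adjusted p = 0.229), Cox6b1 by -1.25 ± 0.35 and Atp5e by -1.21 ± 0.33. Medians were -0.81 for complex I, -0.68 for II, -0.71 for III, -0.49 for IV and -0.61 for V. That of complex IV takes in its tissue isoforms, at -0.29 (Cox7a1) to 0.33 (Cox6a2). Its other genes ran from -1.25 (Cox6b1) to -0.40 (Cox7b). Without Rag1-/- GFP+ replicate 1 and GFP- replicate 3 together the median of all members was -0.32. The 2 gate comparisons share no arrays, and 64 of 88 members were above 0 in Rag1-sufficient and below 0 in Rag1-/- cells, 72.7% against 31.8% of all sets. Across members the gate effects had a Pearson correlation of -0.235, against -0.104 over all sets. Both values are descriptions over genes that share the same arrays.

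**Figure D5:**
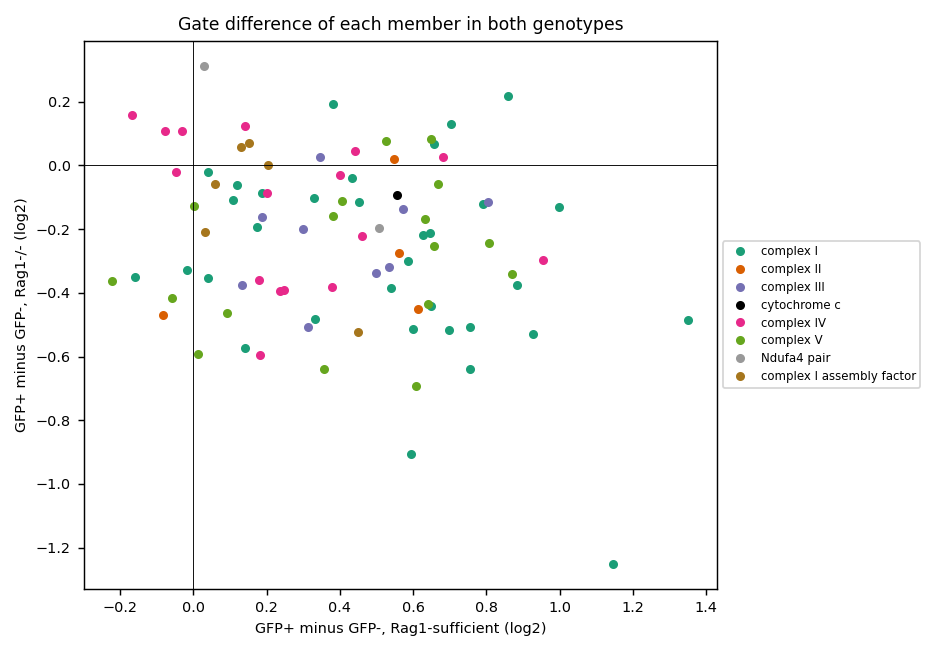
Each point is 1 member gene, with its GFP+ minus GFP- difference in Rag1-sufficient mice on the x axis and in Rag1-/- mice on the y axis, in log2 units. Of the 88 members 64 lie to the right of 0 and below it.

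Further genes of mitochondrial function are given as counts and medians. In Rag1-sufficient GFP+ against GFP- cells the mitochondrial ribosome had a median of 0.30 (62 of 73 above 0, 2 called higher), the citric acid cycle 0.15 (11 of 13, 0 called) and the other assembly factors 0.068 (21 of 29, 0 called). Cytosolic ribosome genes had 0.16, glycolysis genes -0.036 and cell cycle genes 0.50, with 3 of 23 cell cycle genes called higher. The 10 tested regulators of mitochondrial genes had a median of 0.11 and 0 called. Nrf1, whose motif is printed above, differed by 0.23 (limma adjusted p = 0.557), the ETS factor Gabpa by 0.46 (adjusted p = 0.277), Esrra by 0.048 and Myc by -0.40. Of the 7 Ndufaf assembly factors 6 were tested, and these were above 0, by a median of 0.14. Ndufa4, first described in complex I and now known as a complex IV subunit, differed by 0.51 ± 0.41.

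Several probe sets stood for 18 of the member genes, and in 4 of these the sets differed in sign. Ndufc1, a small complex I subunit, gave 0.065 in the Rag1-/- gate from its brighter set and -0.25 from the other. Ndufab1 gave -0.019 and 0.053 in the Rag1-sufficient gate. The 6 sets of Atp5l, an ATP synthase membrane subunit, ranged from -0.019 to 0.12 between GFP+ genotypes and from 0.35 to 0.47 in the Rag1-sufficient gate. Cox7a2l, a factor of supercomplex assembly, had -0.11 in Rag1-/- against Rag1-sufficient GFP+ cells from its brighter set and 0.25 from its dimmer one.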

How the data were processed

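Linear intensities of 24922 probe sets on 9 arrays were deposited by the authors, already brought to a common scale. The submitters' processing notes name MAS5, with no role or version. How arrays were normalized, and on which genome build, is not given in the sources used here. Biotinylated DNA was the labelled material, per the labels' protocols. Intensities were taken as log2(value + 1), which understates changes of dim sets. The 30% of sets with the lowest mean (limit 41.57) were left out, and 17445 were tested with limma 3.58.1 in R 4.3.3 (1 mean per group, moderated with an intensity trend, Benjamini-Hochberg over all sets). The fit had 5 residual and 3.564 prior degrees of freedom. It was tested on simulated data. In 12464 sets at least 2 of the 9 arrays, of any group, held exactly equal values.

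Of all probe sets, 21425 had 1 gene symbol, 1399 several and 2098 none. A gene is represented by its set with the highest mean over all arrays. All 91 member genes matched RefSeq by gene ID, and 6 further sets with a member symbol among several were not used.

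Genes named were drawn from the 2 smallest p per complex in each comparison, a panel of core subunits, and tissue isoforms. Others came from genes whose sets differed in sign and the brightest and dimmest member of each complex. Not every gene of these lists is named. Ndufa6 was added later. Members and lists were chosen with earlier results of these data known. Alternatives were pseudocount, filter, normalization, trend, array weights, replicate block, probe-set averaging and leaving out arrays. The number of arrays limits the precision.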

Additional observations from a re-analysis of the deposited data

Results flagged for a closer look

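The gate difference of the complex II median ran in opposite directions on every array of the 2 genotypes, which is why it is given here. The difference itself was not tested at this level. The median deviation of the 4 complex II genes was -0.20 and -0.073 in Rag1-/- GFP+ samples, each below the -0.056, 0.14 and 0.59 of Rag1-/- GFP- samples. It was 0.35 and 0.10 in Rag1-sufficient GFP+ samples, each above the -0.18 and -0.24 of Rag1-sufficient GFP- samples. The mean gate difference in Rag1-/- minus that in Rag1-sufficient mice was -0.80. The closest Rag1-/- arrays lay at -0.073 (GFP+ replicate 2) and -0.056 (GFP- replicate 1), which is within the spread between replicates (pooled SD 0.2292). Gene by gene the fractions did not separate in this way. In Rag1-/- mice all 4 genes overlapped between fractions, and Sdhc differed by 0.0185 ± 0.18. In Rag1-sufficient mice 3 of the 4 were higher without overlap, and Sdha overlapped (-0.083 ± 0.24).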

How the results depend on the processing

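The number of members called was 0 in all 5 comparisons and became other than 0 in few settings. For the Rag1-sufficient gate, 17 were called with array weights (1290 of all sets), 2 without the intensity trend (119 of all sets), 1 with only the arrays compared (109 of all sets), and 9 without Rag1-/- GFP+ replicate 1 and GFP- replicate 3 together (531 of all sets), all higher. With 1 array left out the count ranged from 0 to 4, with 4 called without Rag1-/- GFP+ replicate 1 (333 of all sets) or replicate 2 (335 of all sets). For Rag1-/- against Rag1-sufficient GFP- cells, array weights called 14 (1168 of all sets). For the interaction, leaving out Rag1-/- GFP+ replicate 2 called 8 (500 of all sets), within a range of 0 to 8. In Rag1-/- mice and in the GFP+ genotype comparison no setting called a member. The cause of these moves was not tested.

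Medians over members with 1 array left out ranged from 0.22 to 0.58 for the Rag1-sufficient gate, -0.35 to -0.061 for the Rag1-/- gate, -0.31 to -0.011 for the GFP+ genotypes, 0.31 to 0.53 for the GFP- genotypes and -0.78 to -0.45 for the interaction. Leaving out the 2 doubted Rag1-/- arrays, chosen after seeing the data, turned the Rag1-/- gate median to 0.061 and gave -0.32 for the interaction, which was -0.38 under quantile normalization. Where this leaves 1 array in a group, that array is assumed to vary like the other groups.

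By complex, the same 2 arrays turned the Rag1-/- gate to 0.062 in complex I, 0.12 in complex III and 0.022 in complex IV, and the GFP+ genotype difference of complex III to 0.091. With 1 array left out, the Rag1-/- gate of complex III ran from -0.39 to 0.021, positive without GFP+ replicate 1. The GFP+ genotype difference ran from -0.58 to 0.11 in complex III, positive without Rag1-/- replicate 1 (0.091) or Rag1-sufficient replicate 1 (0.11), and from -0.21 to 0.012 in complex IV, positive without Rag1-sufficient replicate 1. Among genes near 0, the Rag1-sufficient gate differences that changed sign with 1 array left out were Atp5a1 (-0.029 to 0.054, and -0.11 under quantile normalization), Cox4i1 (-0.0074 to 0.48), Cox6a1 (-0.12 to 0.48) and Ndufab1 (-0.13 to 0.091, with 0.010 under median centring and 0.014 as a mean of its sets). Ndufs1 ran down to -0.032 and Sdha up to 0.0003. Cycs in the Rag1-/- gate gave 0.055 under quantile normalization, -0.25 to 0.063 with 1 array left out and 0.056 without both arrays. Atp5d between GFP+ genotypes gave 0.11 under quantile normalization, -0.30 to 0.20 with 1 array left out and 0.20 with both out. Between GFP- genotypes quantile normalization gave -0.046 for Atp5b, -0.010 for Atp5d and -0.11 for Atp5g1, and Atp5g1 was -0.013 without Rag1-sufficient GFP- replicate 2. Atp5g2 in the Rag1-sufficient gate gave -0.059 under quantile normalization and -0.12 to 0.30 with 1 array left out, and Ndufv1 there -0.25 to 0.53. Ndufc1 in the Rag1-/- gate gave -0.083 as a mean of its sets and -0.088 to 0.22 with 1 array left out. Between GFP+ genotypes Atp5l gave 0.041 under quantile normalization, 0.048 as a mean of its sets, 0.22 without both arrays and -0.26 to 0.22 with 1 array left out, and Cox7a2l -0.29 to 0.069.

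The replicate numbers are shared between groups, but the labels do not say that they pair samples, and same-numbered arrays had deviations correlated between -0.51 and 0.24. With the replicate block the count called was 0 in every comparison, and the medians were 0.42, -0.094, -0.17, 0.31 and -0.49. Number 3 occurs on 1 array only, so the block drops Rag1-/- GFP- replicate 3.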
